A study of Mus musculus with 12 samples.

Results

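The regions described here are stretches of the mouse genome that carried H3K79me1 peaks in both control libraries and lay more than 10 kb from any H3K79me2 peak. They were chosen by the positions of the deposited peaks on the autosomes of the mm9 build. A stretch was kept if both control H3K79me1 lists covered it over at least 200 bp and no peak of any of the 4 H3K79me2 lists came within 10 kb of either end. The rule gave 42 stretches out of 61049 shared by both controls, or 0.0688%, with 13.2 kb in all. The other 61007 stretches, 26.9 Mb in all, had H3K79me2 within 10 kb.

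DOT1L is the enzyme that methylates a lysine in the globular core of histone H3 (H3K79), and it adds methyl groups in steps, so that the monomethylated form (H3K79me1) comes before the dimethylated form (H3K79me2). Both forms lie mainly over the bodies of transcribed genes, with H3K79me2 strongest near the start of the gene. AF10, the product of the Mllt10 gene, is a cofactor of DOT1L that favours the higher methylation states.

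The series compared mouse embryonic fibroblasts of the genotype AF10 -/- with fibroblasts of the genotype AF10 fl/fl. Both genotypes included OSKM, the set of transcription factors used to reprogram cells to pluripotency, and rtTA, an activator that works when doxycycline is present. The AF10 -/- cells had received an adenovirus with Cre recombinase under the CMV promoter (Ad5-CMV-Cre), and the AF10 fl/fl cells an empty one (Ad5-CMV-Empty). Reprogramming was started 2 days after the virus with doxycycline (2 µg/mL), and all libraries are from its day 4. The cells grew on gelatin and DR4 feeder fibroblasts, which the labels do not describe as carrying the deletion, and whether feeder chromatin entered the libraries is not stated. These are bulk libraries, in which fewer cells with the mark and less of the mark per cell cannot be told apart. Each mark had 2 Cre and 2 control libraries, and no label says whether replicates came from separate cultures, so their spread may be technical.

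The 4 H3K79me1 libraries differed widely in how much was called. Peaks on the autosomes covered 59.5 and 1.85 Mb in Cre replicates 1 and 2, and 117.8 and 53.4 Mb in control replicates 1 and 2. The lists held 115940 autosomal peaks in Cre replicate 1 and 12047 in Cre replicate 2. Control replicate 1 had 160119 and control replicate 2 had 155558. The lists give no read counts, so depth is unknown. The labelled cell type could not be checked, since the lists name no genes and no mm9 annotation was used here.

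The 42 stretches were shorter than the others at the median. Their lengths ran from 201 to 631 bp with a median of 287 bp, against a median of 355 bp and a highest value of 4028 bp in the other stretches. The authors' fold enrichment of the covering peak, which is the peak's signal over its local background, had a median of 1.69 in the first control library and 1.85 in the second. The corresponding medians over the other stretches were 2.02 and 1.93. These control values come from the lists that chose the stretches and are given as a description. All 42 stretches lay under control peaks with a −log10 q of 0, as did 89.1% (control replicate 1) and 99.9% (control replicate 2) of the other stretches. The −log10 p of the covering peak had a most frequent value of 1.06 in control replicate 1, shared by 17 stretches, and of 1.63 in control replicate 2, shared by 29. It reached at most 1.44 in control replicate 1 and 2.29 in control replicate 2.

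Most stretches lay just beyond the distance limit. The distance to the nearest H3K79me2 peak had a median of 12.1 kb, 37 stretches were within 20 kb, 5 were farther, and 1 was more than 50 kb away. Between 10 and 11 kb there were 15 stretches, and between 9 and 10 kb, just outside the rule, there were 21. Of all shared stretches, 51023 (83.6%) overlapped or abutted an H3K79me2 peak. The territory more than 10 kb from H3K79me2 made up 32.7% of the autosomes, or 789.5 Mb.

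**Figure D1:**
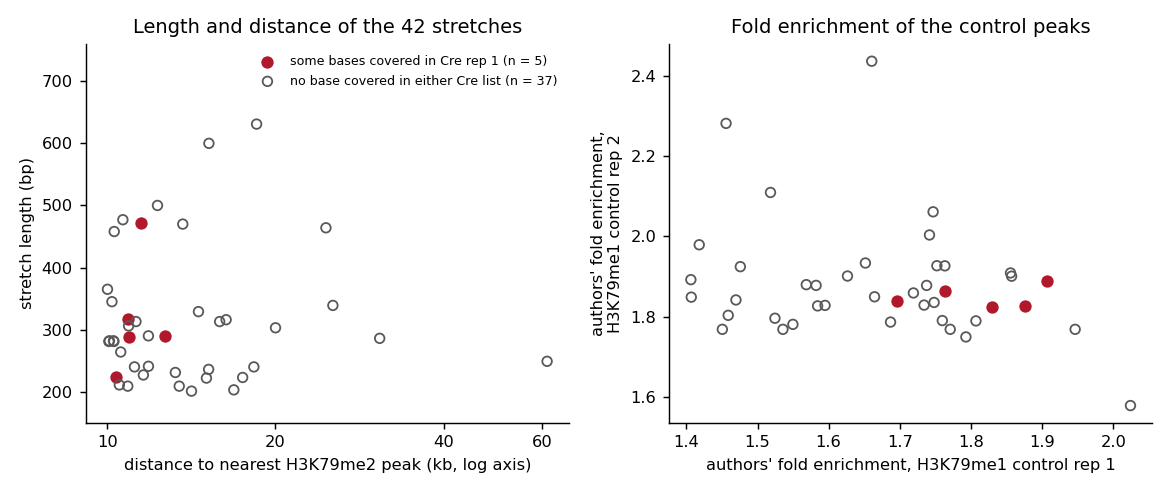
Each point is 1 of the 42 stretches. The left panel plots the length in bp against the distance to the nearest H3K79me2 peak on a log axis in kb, and the right panel plots the authors' fold enrichment of the covering H3K79me1 peak in control replicate 2 against that in control replicate 1. Filled points are the 5 stretches with some bases covered in H3K79me1 Cre replicate 1, all within 13 kb of H3K79me2, and open points are the 37 with none in either Cre list.

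The number of stretches depended on which H3K79me2 lists were asked. H3K79me2 control replicate 2 held the nearest peak for 24 of the 42 stretches, Cre replicate 2 for 9, Cre replicate 1 for 6 and control replicate 1 for 3. Without H3K79me2 control replicate 2 the number was 362 rather than 42, and without H3K79me2 Cre replicate 2 it was 90. With the Cre H3K79me2 lists alone it was 557, and with the control H3K79me2 lists alone it was 142. The nearest H3K79me2 peaks had median −log10 p between 1.37 and 2.23 in the 4 lists, the same medians as over all peaks of those lists. With H3K79me2 peaks of −log10 p of at least 2 only, 5260 stretches met the rule. That cutoff bears unequally on the lists, whose median was 2.23 in control replicate 1 and 1.37 to 1.56 in the others. The rule records an absence of listed peaks, and the level of H3K79me2 in these places is unknown.

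The widest stretch spanned 631 bp of chromosome 6, from 100619056 to 100619686 (mm9, as are all positions), with H3K79me2 at 18.5 kb. The next was 600 bp long on chromosome 1 (123380860 to 123381459), with H3K79me2 at 15.2 kb. A stretch of 500 bp on chromosome 15 (82074147 to 82074646) had its nearest H3K79me2 peak at 12.3 kb. On chromosome 4, 477 bp from 85751337 to 85751813 were marked, 10.7 kb from H3K79me2. The fifth was the 472 bp stretch of chromosome 17 from 79317195 to 79317666, 11.5 kb from H3K79me2. The first 4 had no base covered in either Cre list, while the stretch on chromosome 17 was covered to 78.0% in Cre replicate 1 and to 0% in Cre replicate 2. The widest stretch, on chromosome 6, had an authors' fold enrichment of 1.86 in control replicate 1 and 1.91 in control replicate 2, and no other shared stretch within 167.3 kb.

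The stretch farthest from H3K79me2 lay on chromosome 6 at 87621231 to 87621479, with 61.2 kb to the nearest H3K79me2 peak. Its 249 bp had an authors' fold enrichment of 1.41 and 1.89 in control replicates 1 and 2. The nearest H3K79me1 peak after Cre was 49.7 kb away in the first Cre library and 175.0 kb away in the second. The next farthest were on chromosome 19 at 53881193 to 53881478, at 30.7 kb, and on chromosome 10 at 10931113 to 10931451, at 25.3 kb, at 81329020 to 81329483, at 24.6 kb, and at 100050297 to 100050599, at 20.0 kb. None of these 5 had a base covered in either Cre list.

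At the limit itself, the nearest members were on chromosome 2 at 53074318 to 53074682, with H3K79me2 at 10014 bp, and on chromosome 7 at 108429877 to 108430157, with H3K79me2 at 10.07 kb. Just outside it were stretches on chromosome 17 at 87412031 to 87412551, at 9.98 kb, and on chromosome 11 at 40522904 to 40523320, at 9.95 kb. Each of those excluded stretches had a member beside it. The member on chromosome 17 at 87409056 to 87409286 was 2744 bp away, and that on chromosome 11 at 40522037 to 40522342 was 561 bp away. The excluded stretches were covered to 41.5% and 56.4% in Cre replicate 1 and to 0% in Cre replicate 2, while their neighbouring members were not covered in either Cre list.

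The 42 stretches were scattered. They lay on 17 of 19 autosomes, each in a 1-Mb window of its own, and none had another member within 50 kb. Chromosomes 3 and 9 had none. Chromosome 10 had the most, with 8 of 2871 shared stretches, or 0.279%, followed by chromosomes 1 and 6 with 5 each. On chromosome 10 the members not yet named began at 7478867, 8510858, 43033003, 82183105 and 84589678. No member lay in the first 1 Mb of an assembled chromosome. Members can lie only in the 789.5 Mb more than 10 kb from H3K79me2. How often 42 stretches placed there would show the same absences was not computed. The absences are therefore not read as a trait of the members. No other shared stretch lay within 10 kb of 35 of the 42 members (83.3%), against 4.04% of the other stretches, and none lay within 50 kb of 14 members (33.3%), against 0.974%. The nearest other stretch was 20.0 kb away at the median and 883.1 kb at most. These shares come from the lists that chose the members.

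Few of the stretches also carried an H3K79me1 peak in the Cre H3K79me1 lists, which the rule did not use. The rule did use the Cre H3K79me2 lists, so the choice of members was not independent of the Cre condition. With the control H3K79me2 lists alone, 142 stretches met the rule. Mean cover by the Cre libraries was then 8.66 ± 11.4% of bases, against 3.32 ± 4.70% for the 42 (SD, n = 2). Cre replicate 1 covered some part of 5 of the 42 (11.9%). Over all 61049 shared stretches that share was 67.7%. Cre replicate 2 covered part of 0 of 42, against 7.76% over all shared stretches. Stretches within a library are not replicates, so these shares describe each library only. At least 50% of the bases were covered in 3 of 42 stretches by Cre replicate 1, against 49.4% over all shared stretches. In Cre replicate 2 that count was 0 of 42, against 1.29%. No stretch was covered over at least 50% in both Cre lists.

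In bases, Cre replicate 1 covered 6.65% of the 42 stretches and 51.8% of the other stretches. Cre replicate 2 covered 0% and 2.66%. The mean over the 2 Cre libraries was 3.32 ± 4.70% in the 42 stretches and 27.2 ± 34.8% in the others (SD, n = 2). The difference was negative in both libraries, with a mean of -23.9 percentage points. It was -45.2 points without Cre replicate 2 and -2.66 points without Cre replicate 1, and an exact sign-flip test over 2 libraries cannot give a two-sided p below 0.5.

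The 5 stretches that Cre replicate 1 touched were chosen for mention after their values were seen. It covered 368 of 472 bp of the stretch on chromosome 17 at 79317195 to 79317666 and 166 of 223 bp on chromosome 14 at 122552305 to 122552527. On chromosome 10 it covered 183 of 317 bp at 84589678 to 84589994, on chromosome 5 it covered 118 of 290 bp at 97486235 to 97486524, and on chromosome 8 it covered 44 of 288 bp at 63967686 to 63967973. All 5 were between 10.4 and 12.7 kb from the nearest H3K79me2 peak. In 6 further stretches an H3K79me1 peak of Cre replicate 1 lay within 1 kb without covering a base. The nearest Cre replicate 1 peak was 5.24 kb away at the median and 100.5 kb at most. The nearest Cre replicate 2 peak was never closer than 10.7 kb, with a median of 62.2 kb.

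Cover after Cre fell with distance from H3K79me2 well inside the 10 kb limit, so the 42 stretches stood at the low end of a gradient. Of the shared stretches that touched H3K79me2, Cre replicate 1 covered 56.3%. It covered 19.8% at 1 bp to 1 kb, 14.4% at 1 to 2 kb, 12.1% at 2 to 5 kb and 6.62% at 5 to 10 kb. Among the members it covered 7.59% of the 37 stretches at 10 to 20 kb and 0% of the 5 beyond. The members at 10 to 20 kb were thus close to the 211 stretches at 5 to 10 kb. Cre replicate 2 covered 2.99% of the touching stretches and at most 0.244% of any farther class.

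**Figure D2:**
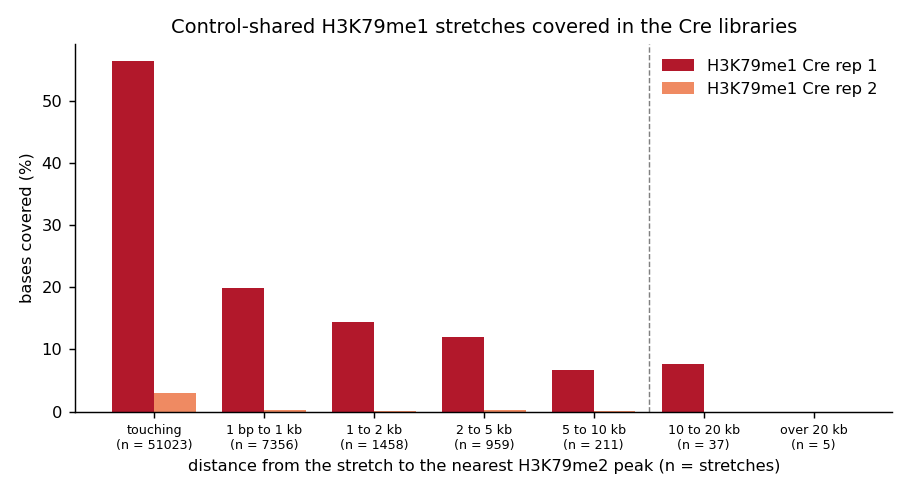
The bars give the percentage of bases of control-shared H3K79me1 stretches that each H3K79me1 Cre library covered, in classes of distance to the nearest H3K79me2 peak, with the number of stretches under each class. The dashed line marks 10 kb, to the right of which lie the 42 stretches. Cre replicate 1 covered 56.3% of touching stretches, 6.62% at 5 to 10 kb and 7.59% at 10 to 20 kb.

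The members differed from the other stretches in length and in control fold enrichment, so the shares were also compared within classes of each, taken separately. Among stretches of 200 to 249 bp, Cre replicate 1 covered 4.93% of 15 members and 40.9% of the others. At 250 to 349 bp it covered 6.36% of 18 members and 44.5% of the others, and at 350 to 699 bp it covered 8.29% of 9 members and 51.4% of the others. Classes were also made by fold enrichment averaged over the controls. Below 1.7, Cre replicate 1 covered 0% of 9 members and 14.3% of the others, from 1.7 to 1.8 it covered 3.26% of 17 members and 23.0% of the others, and from 1.8 to 2.0 it covered 13.0% of 15 members and 41.2% of the others. Only 1 member had a mean fold of 2.0 or more, and Cre replicate 1 covered 0% of it and 65.4% of the others in that class. Among stretches with no other shared stretch within 10 kb and a length under 350 bp, Cre replicate 1 covered 5.32% of 28 members and 22.1% of 1600 others. Cre replicate 1 covered less of the members than of the others in each of these classes, and the classes were chosen with the values known. Cre replicate 2 covered 0% of the members and 0.422% to 3.801% of the others in these classes. The classes were not matched for distance, and 83.6% of all the others touched H3K79me2. At 5 to 10 kb, Cre replicate 1 covered 6.62% of the 211 others, against 6.65% of the members. Whether length, fold or isolation matters apart from distance was not tested.

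Cre replicate 1 covered 7.59% of the bases of the 37 members at 10 to 20 kb from H3K79me2. Of all autosomal sequence at that distance, with or without a control peak, Cre replicate 1 covered 0.115%. It covered 1.54% of the bases within 10 kb on either side of the members, on average. These flanks carried H3K79me1 of Cre replicate 1 in 26 of 42 members. They had none in 38.1% of the members, against 0.811% of the other stretches. Mean cover of the flanks of the other stretches by Cre replicate 1 was 27.99%. In the controls, which chose the members, the mean cover of the members' flanks was 9.95% in replicate 1 and 3.52% in replicate 2. Around the other stretches it was 47.9% and 23.8%. Out to 50 kb, 41 of the 42 members had some H3K79me2 in at least 1 list, with a mean cover of 3.32% and 3.11% in H3K79me2 Cre replicates 1 and 2 and of 0.850% and 4.91% in H3K79me2 control replicates 1 and 2. Around the other shared stretches these means were 14.8% and 13.4% in the Cre H3K79me2 lists and 4.18% and 17.7% in the control H3K79me2 lists. The rule fixes part of this contrast, since it keeps the 10 kb beside each member free of H3K79me2 and puts H3K79me2 within 10 kb of each of the others.

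**Figure D3:**
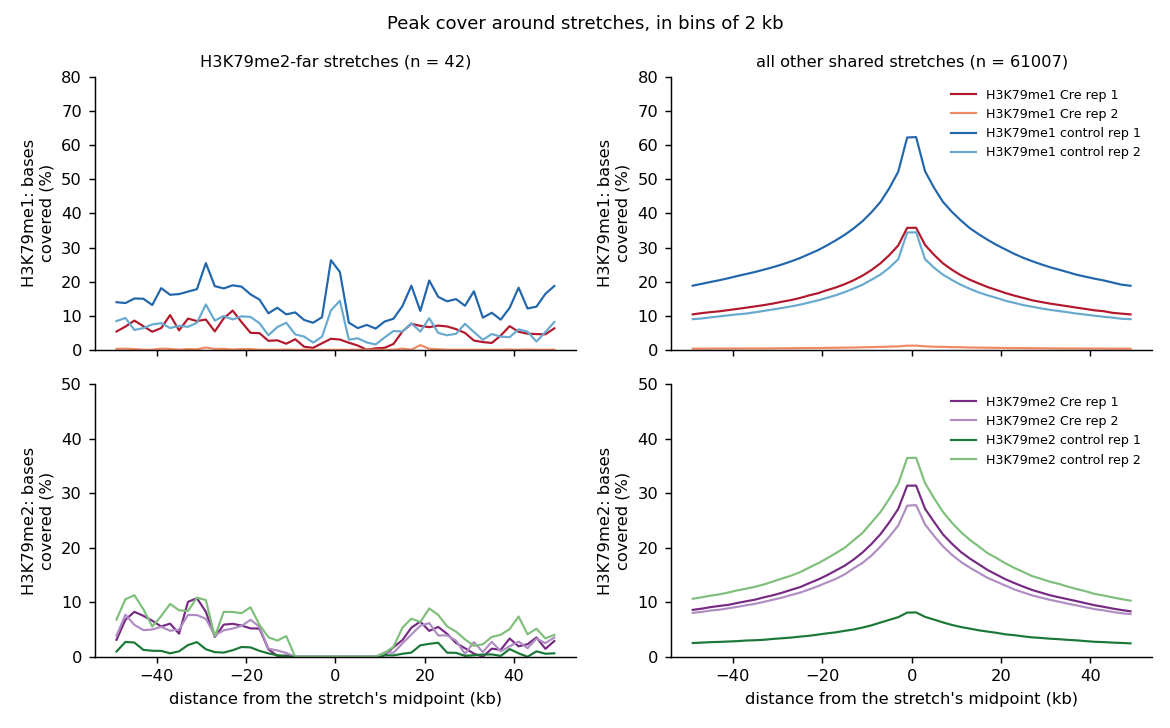
Lines give the percentage of bases covered by each peak list in bins of 2 kb, against distance in kb from the midpoint of the stretch, for the 42 stretches far from H3K79me2 on the left and the 61007 others on the right. The upper row shows the H3K79me1 lists and the lower row the H3K79me2 lists. On the left the H3K79me2 lines are at 0 within 10 kb by the rule and return beyond it, and the H3K79me1 control lines peak at the centre by the rule, whereas Cre replicate 1 reaches 3.21% and 3.00% in the 2 central bins.

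A control that did not choose the stretches gave the same measure without Cre. All stretches of 200 bp or more in a single control list were taken, and the share covered by each other list was measured. Control replicate 1 had 6610 such stretches more than 10 kb from H3K79me2. Cre replicate 1 covered 3.22% of their bases, Cre replicate 2 covered 0%, and control replicate 2 covered 1.25%. Control replicate 2 had 529 such stretches, of which Cre replicate 1 covered 2.17%, Cre replicate 2 covered 0.329% and control replicate 1 covered 12.1%. Cre replicate 1 was thus above the other control in the first set and below it in the second. Over the 4 combinations the difference of Cre from the other control averaged -5.22 ± 6.62 percentage points (SD of 4 values, which share libraries).

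Low recovery far from H3K79me2 was seen between the controls as well. Control replicate 2 covered 34.1% of the control replicate 1 stretches that touched H3K79me2 and 1.25% of those beyond 10 kb, and Cre replicate 1 covered 45.6% and 3.22%. Control replicate 1 covered 69.6% of the control replicate 2 stretches that touched H3K79me2 and 12.1% of those beyond 10 kb, and Cre replicate 1 covered 45.7% and 2.17%. In the territory beyond 10 kb, Cre replicate 1 covered 3.24% of the control replicate 1 peak length and 0.0962% of the whole territory, and control replicate 2 covered 1.41% of that length and 0.0374% of the territory. No base there was shared by Cre replicate 2 with Cre replicate 1 or with control replicate 1.

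Stretches of 200 bp or more shared by Cre replicate 1 and control replicate 1 and far from H3K79me2 numbered 150, against 42 for the 2 controls and 9 for Cre replicate 1 with control replicate 2. The lists differ widely in cover. The product of 2 lists' covers beyond 10 kb was divided by the length of that territory, and the length they shared there was divided by the result. This ratio was 33.6 for Cre replicate 1 with control replicate 1, 37.8 for the 2 controls and 21.1 for Cre replicate 1 with control replicate 2. It was 382.6 for Cre replicate 2 with control replicate 2, from 1.61 kb of shared length, and 0 for the other pairs with Cre replicate 2. In the rest of the autosomes the ratio was 10.0 for Cre replicate 1 with control replicate 1 and 8.57 for the 2 controls. There it was 10.1 for Cre replicate 1 with control replicate 2 and 8.65 to 18.9 for the pairs with Cre replicate 2. Cre replicate 2 shared 1 such stretch with control replicate 2, 0 with control replicate 1 and 0 with Cre replicate 1.

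Over the genome as a whole, H3K79me1 cover depended strongly on distance from H3K79me2. Cre replicate 1 covered 40.6% of sequence inside H3K79me2 peaks, 0.115% at 10 to 20 kb and 0.0372% beyond 50 kb. Cre replicate 2 covered 1.62%, 0.00165% and 0.00116% in the same classes. Control replicate 1 covered 53.8%, 0.332% and 0.105%, and control replicate 2 covered 30.0%, 0.0521% and 0.00464%. At 10 to 20 kb, where 37 of the members lay, cover by Cre replicate 1 was 0.345 times that of control replicate 1, cover by Cre replicate 2 was 0.00496 times, and cover by control replicate 2 was 0.157 times. Cre replicate 1 thus lay between the controls at that distance and Cre replicate 2 below both.

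**Figure D4:**
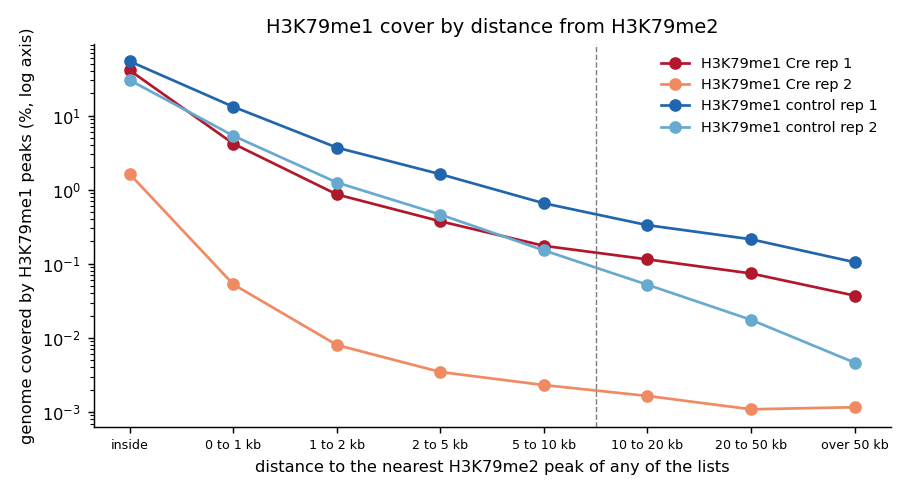
Points give the percentage of autosomal sequence covered by the H3K79me1 peaks of each library, on a log axis, in classes of distance to the nearest H3K79me2 peak of any list, and the dashed line marks 10 kb. Cover decreased from class to class up to 20 to 50 kb in all 4 libraries. Cre replicate 1 lay above control replicate 2 inside H3K79me2, below it from 0 to 5 kb, and above it beyond 5 kb.

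The share of each H3K79me1 list that lay far from H3K79me2 was under 2% in every library, and the groups overlapped. It was 1.28% and 0.608% of the peak length in Cre replicates 1 and 2, and 1.87% and 0.553% in control replicates 1 and 2. Both replicate 1 libraries were above both replicate 2 libraries. The means were 0.942 ± 0.472% after Cre and 1.21 ± 0.928% in control (SD, n = 2), a difference of -0.267 percentage points with an exact two-sided permutation p of 1 over 6 arrangements, where 0.333 is the smallest p possible. Without Cre replicate 2 the difference was 0.0665 points, and without control replicate 1 it was 0.389 points, so its direction rested on these libraries. It also rested on the peaks used. When H3K79me2 peaks had to reach a −log10 p of 2, the shares were 12.3 and 6.24% in Cre replicates 1 and 2, both below the 19.3 and 13.8% in control replicates 1 and 2. A further setting kept at most the strongest 100000 peaks of each H3K79me1 list, which left the 12047 of Cre replicate 2 uncut. The shares were then 1.20 and 0.608% in Cre, both above the 0.332 and 0.592% in control. Each of these separations had the smallest p the exact permutation test can give, 0.333.

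**Figure D5:**
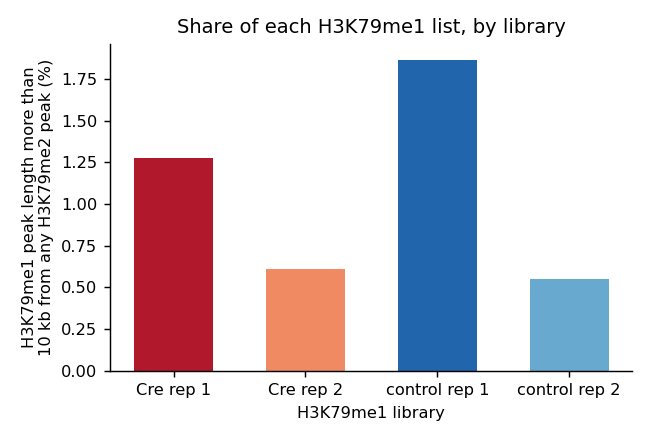
Bars give, for each H3K79me1 library, the percentage of the autosomal peak length that lay more than 10 kb from any H3K79me2 peak. The values are 1.28% and 0.608% in Cre replicates 1 and 2 and 1.87% and 0.553% in control replicates 1 and 2, so the groups overlap.

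Peaks far from H3K79me2 were narrower than the rest in all 4 H3K79me1 libraries. Their median width was 202 and 56 bp in Cre replicates 1 and 2 and 267 and 155 bp in control replicates 1 and 2, against 345 and 127 bp and 492 and 257 bp for the other peaks of the same lists. The authors' fold enrichment was lower far from H3K79me2 in 3 of the 4, with medians of 1.64 in Cre replicate 1 and of 1.51 and 1.85 in control replicates 1 and 2, against 1.75, 1.77 and 1.89 for the other peaks. In Cre replicate 2 it was higher, at 2.11 against 1.90. A −log10 p of 3, which equals the p of 0.001 in the peak names, was reached by 0 of 3172 far peaks in Cre replicate 1 and 12 of 123 in Cre replicate 2, and by 0 of 6610 in control replicate 1 and 1 of 1512 in control replicate 2. Over all autosomal peaks, 41 and 319 reached it in Cre replicates 1 and 2, and 100 and 193 in control replicates 1 and 2.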

How the data were processed

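Each library's peak list was deposited separately. The submitters' processing notes name the builds hg19 and mm9 and the tools deepTools, HOMER, bedtools, Bowtie2, MACS2 and SAMtools 1.2, without role or order. Names of the deposited peaks show broad calling with an input, at a p of 0.001 (H3K79me1) or 1e-04 (H3K79me2). The authors' lists hold, for each peak, a score, its fold enrichment over background as a ratio, and the −log10 of its q-value and of its p-value, all used only to describe or filter peaks within a list. No spike-in scaling is recorded, and read depth is unknown. Per the labels' protocols, 7.1 µg of chromatin received 133 ng of spike-in chromatin from 293T, a human cell line, and 5 µg of antibody was used.

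Samples were grouped by title. Overlaps and distances in bases were computed with Python 3.11.15, pandas 2.3.3, NumPy 2.4.6 and SciPy 1.17.1, and tested on simulated data. Distance is the number of bases between a stretch and a peak. Positions are printed from base 1. The reference table is of another build, so no gene was tied to a stretch and no sequence is printed. By the naming rule, named were the 5 widest and 5 farthest stretches, those covered over at least 50% in both Cre lists, the 3 1-Mb windows with most stretches (every window tied at 1) and those nearest the limit. Outside that rule, the stretches touched in Cre replicate 1, the further members on chromosome 10 and the members beside excluded stretches were also named. Stretches on chromosome 18 were counted, not named. The members and settings were chosen with earlier results of these data known. The 4 RNA polymerase II libraries were not analysed here.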

Additional observations from a re-analysis of the deposited data

How the results depend on the processing

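The number of stretches changed with each of these settings. It was 253, 5 and 1 with H3K79me2 more than 5, 20 and 50 kb away, 138 and 8 with a minimum length of 100 and 400 bp, 69 with H3K79me1 peaks merged within 1 kb, 18 with the strongest 100000 peaks per H3K79me1 list, 5260 and 0 with H3K79me2 or H3K79me1 peaks of −log10 p of at least 2, and 557 and 142 with the Cre or the control H3K79me2 lists only. With each library left out it ran from 42 to 6610, where a left-out H3K79me1 control leaves a single list. A −log10 p cutoff of 2 is not an equal setting across lists, since their −log10 p values differ.

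The difference in far share was 0.00567 points beyond 50 kb, 0.146 with H3K79me1 −log10 p of at least 2 and 0.441 with the strongest 100000 peaks (Cre replicate 2 had fewer and stayed uncut), all opposite in sign to the reported value. It kept its sign but was larger with H3K79me2 −log10 p of at least 2 (-7.31), with the Cre H3K79me2 lists only (-1.90) and beyond 5 kb (-1.32). With 1 library left out it ran from -1.62 to 0.389. With the replicate number as a block it stayed at -0.267 (pair differences -0.590 and 0.0551, exact sign-flip p of 1, smallest possible 0.5). No label says that the numbers mark pairs. In the H3K79me1 lists, peak names of same-numbered Cre and control libraries share a tag whose meaning is not stated. The far share was higher in replicate 1 than in replicate 2 on all 19 autosomes, both in Cre and in control. Deviations of same-numbered libraries gave r = 0.407 over 19 autosomes. Autosomes of the same libraries are not independent, so this value does not decide whether the numbers mark pairs.

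The mean share of the stretches covered after Cre was 15.3% with H3K79me2 −log10 p of at least 2 and 8.66% with control H3K79me2 lists only, and 0 to 6.96% with 1 library left out. The difference from the other stretches ran from -45.2 to -2.66 points with 1 library left out. Against the other control, the difference was -14.3 points beyond 50 kb and -17.9 with H3K79me2 −log10 p of at least 2, and -9.64 to -3.96 with 1 library left out. The cause of these changes was not tested. No cover could be computed with H3K79me1 −log10 p of at least 2, where no stretch was left, nor the comparison with the other control when a control was left out. Unknown read depth limits every absence of a peak.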
